A study of Mus musculus with 8 samples.

Results

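The crypt stem cell genes and Lgr5 partners are 10 mouse genes chosen by name and matched by symbol, out of 43629 genes counted in the series: Lgr4, Lgr5, Rnf43, Znrf3, Olfm4, Ascl2, Smoc2, Lrig1, Bmi1 and Hopx. All 10 were found once in the table of read counts and in the table of FPKM values (fragments scaled by gene length and by library size). Polyadenylated RNA was sequenced from 4 tumor libraries and 4 small intestine libraries. Every library, of both tissues, is labelled as Apc mutant, of the mixed strain C57B6/129 and without treatment. Such mice are prone to intestinal tumors, per the design text. Feeding of high-fructose corn syrup, named in the series title, is not given in the labels of these 8 libraries. The Apc allele, the age and sex of the mice, the gut segment, and whether libraries came from separate or pooled animals are not stated in the labels. P-values therefore reflect variation among these libraries only, part or all of which may be technical.

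Epithelial renewal in the gut is fed by stem cells at the crypt base, which depend on Wnt signals. R-spondins, secreted proteins that amplify those signals, bind the receptors LGR4, LGR5 and LGR6 together with the membrane ubiquitin ligases RNF43 and ZNRF3. Left alone, these ligases mark Frizzled receptors for removal and so dampen Wnt signaling, and both are themselves induced by it. ASCL2 is a transcription factor of crypt base stem cells, SMOC2 a secreted matrix-associated protein and OLFM4 a secreted glycoprotein, all used as markers of these cells. LRIG1, a membrane protein that restrains ErbB receptors, BMI1, a subunit of Polycomb repressive complex 1, and HOPX, an atypical homeodomain protein, have been used to mark slow-cycling or reserve stem cells.

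In tumor, 9 of the 10 genes rose and none fell, and Olfm4 was the one that did not pass the test. Znrf3, Lgr5, Ascl2 and Rnf43 rose most, by 16.3-, 11.7-, 8.89- and 6.36-fold, and Lgr4, Bmi1 and Hopx rose least, by 1.24-, 1.38- and 1.78-fold. The call was an adjusted p below 0.05 in edgeR's quasi-likelihood test over all 17029 genes tested. Among those genes, 74.3% were called in either direction, 38.9% as higher in tumor. The 10 genes, all of which passed the filter on low counts, had a median log2 fold change of 1.74, beside 0.07 for all genes tested. In 9 genes the tumor and small intestine libraries did not overlap, all with tumor above, where 70.5% of genes tested were without overlap and 37.5% had tumor above. A call with a change of at least 2-fold upward was made for 6 of the 10, beside 27.9% of genes tested. In these bulk libraries, more cells of a type and more RNA per cell cannot be told apart.

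**Figure D1:**
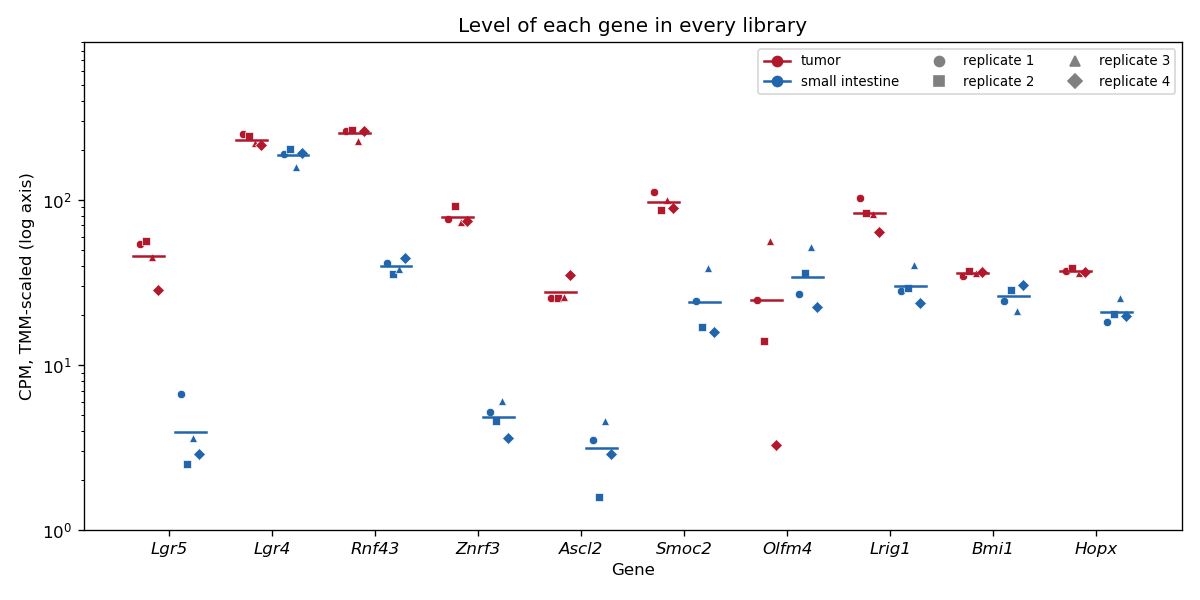
Level of each of the 10 genes in CPM, counts scaled to library size with TMM factors (log axis), in every library, with tumor left of small intestine for each gene, a symbol for each replicate number and a bar at the mean of 4 libraries. For Lgr5, tumor libraries lie between 28.3 and 56.1 CPM and small intestine libraries between 2.53 and 6.65 CPM. For Olfm4, tumor replicate 2 at 13.9 CPM and tumor replicate 4 at 3.27 CPM lie below the small intestine libraries.

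Scaling between the tissues shifted all genes together. The values here use TMM, a trimmed mean of log ratios between libraries. Scaling factors were 1.33 to 1.38 in tumor and 0.687 to 0.788 in small intestine, on totals of 53856561 to 67371180 and 62347648 to 84433335 counts. With library totals alone, the median log2 fold change over genes tested was 0.86 higher, 62.0% of genes were called higher and 17.6% lower, in place of 38.9% and 35.4%. The same 9 genes rose under that scaling, with a median over the 10 genes of 2.59 beside 0.93 for all genes. In the FPKM table, tested with limma on log2(FPKM + 1), the same 9 rose, where 82.7% of 12849 genes tested were called, 64.6% as higher and 18.1% as lower. That scale understates the change of genes with low FPKM such as Lgr5 and Znrf3. Apc itself stood at 132 to 145 CPM in tumor and 88.9 to 145 CPM in small intestine, and counts per gene do not separate its mutant and normal transcripts.

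**Figure D2:**
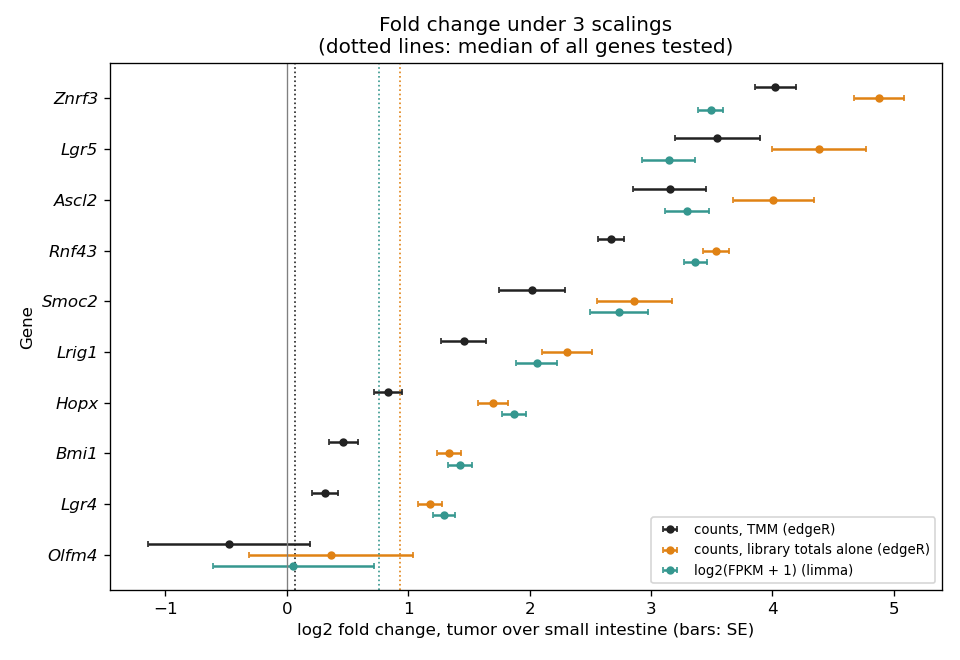
Log2 fold change of tumor over small intestine with its standard error (SE) for the 10 genes, from counts with TMM, from counts with library totals alone (both edgeR) and from log2(FPKM + 1) (limma). Dotted vertical lines give the median of all genes tested under each scaling, at 0.07, 0.93 and 0.76. Lgr4 lies at 0.32 with TMM, close to its line, and Znrf3 at 4.02, far from it.

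Composition of the tissues differed as well. All 8 enterocyte markers fell in tumor under both scalings, with a summed level of 205 to 455 CPM against 28760 to 39532 CPM in small intestine. Of 8 pan-epithelial markers 6 fell and 1 rose (summed, 6528 to 8897 CPM in tumor against 18444 to 25085 CPM in small intestine); with library totals alone 4 fell and 3 rose. All 8 proliferation markers rose (1035 to 1294 against 264 to 424 CPM), as did all 6 fibroblast markers (1155 to 1860 against 17.1 to 61.0 CPM) and all 5 endothelial markers (148 to 194 against 9.26 to 25.2 CPM). Smooth muscle markers rose in 4 of 6 cases (154 to 188 against 31.9 to 96.8 CPM), and in all 6 with library totals alone. Goblet cell markers fell in 5 of 7 (776 to 3019 against 19827 to 34080 CPM), and Paneth cell markers fell in 5 of 7 and rose in 1 (951 to 2515 against 4465 to 14129 CPM). Leukocyte markers fell in 4 of 7 and rose in 2 (67.3 to 96.8 against 104 to 369 CPM). With library totals alone, 5 of 7 goblet cell markers fell, 4 of 7 Paneth cell markers fell and 1 rose, and 4 of 7 leukocyte markers fell and 3 rose. Of all genes tested, 38.9% were called higher and 35.4% lower with TMM, and 62.0% and 17.6% with library totals alone. The part that these shifts had in the rise of the 9 genes was not tested.

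Lgr5, the R-spondin receptor that marks crypt base stem cells, stood at 54.1, 56.1, 45.2 and 28.3 CPM in tumor replicates 1 to 4, against 6.65, 2.53, 3.63 and 2.90 CPM in small intestine replicates 1 to 4. Every tumor library lay above every small intestine library, with tumor replicate 4 the lowest of its group and small intestine replicate 1 the highest of its own. The log2 fold change was 3.55 ± 0.35 (SE), with an edgeR quasi-likelihood adjusted p of 1.39e-05. In genome build GRCm38 the gene (ENSMUSG00000020140) spans chromosome 10 from 115450311 to 115587780 on the minus strand.

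Lgr4, the broadly expressed relative of Lgr5 (ENSMUSG00000050199, chromosome 2 from 109917647 to 110014257), had 249.9, 243, 220.2 and 215 CPM in tumor, against 190.3, 204, 159 and 193 CPM in small intestine. The groups did not overlap, though the gap between the lowest tumor and the highest small intestine library was small. Its log2 fold change of 0.32 ± 0.11 (edgeR adjusted p = 0.0222) was higher than that of 56.5% of genes tested. With library totals alone it was 1.18, most of the increase being the 0.86 by which the median of all genes moved.

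Rnf43, a Frizzled-directed ligase (ENSMUSG00000034177, chromosome 11 from 87662722 to 87735539), had 262, 265.0, 229 and 260.3 CPM in tumor, against 41.3, 35.4, 38.4 and 44.7 CPM in small intestine. The tumor libraries lay far above the others and varied little, with a coefficient of variation of 6.65% in tumor and 9.88% in small intestine. The log2 fold change was 2.67 ± 0.11 (edgeR adjusted p = 7.54e-08). Its homolog Znrf3 (ENSMUSG00000041961, chromosome 11 from 5276324 to 5444847) had 76.5, 92.0, 73.3 and 74.3 CPM in tumor, against 5.19, 4.60, 6.05 and 3.61 CPM in small intestine. With a log2 fold change of 4.02 ± 0.17 (edgeR adjusted p = 1.09e-07), Znrf3 had the largest change of the 10 genes and ranked above 93.6% of genes tested.

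Levels of different genes can be set side by side only per length, here in FPKM. The gene lengths behind the authors' FPKM are not stated, and the order depends on them. In tumor, Hopx (79.6 ± 3.09 FPKM), Rnf43 (72.7 ± 5.21) and Lgr4 (66.0 ± 4.71; SD, n = 4 each) were the highest of the 10. Smoc2 followed at 37.5 ± 3.87 FPKM, and Ascl2, Lrig1, Bmi1, Znrf3, Olfm4 and Lgr5 lay between 21.8 and 13.5 FPKM on average. In small intestine, Lgr4 (26.3 ± 2.39 FPKM) and Hopx (21.2 ± 2.93) came first, overlapping each other. Olfm4 came next at 11.1 ± 4.41 FPKM, overlapping neither neighbor, and Lgr5 (0.618 ± 0.324) and Znrf3 (0.535 ± 0.149) were last, again with overlapping libraries. Annotated exon lengths would put Hopx (20.9 CPM over 1516 bases) well below Lgr4 (186 CPM over 5884 bases) in small intestine. Between neighbors in the tumor order by FPKM, Hopx and Rnf43, Lgr4 and Smoc2, and Smoc2 and Ascl2 did not overlap, while each other pair of neighbors did. In tumor, annotated exon lengths would put Hopx (37.3 CPM over 1516 bases) below Lgr4 (232 over 5884) and Rnf43 (254 over 6558). They would also put Smoc2 (97.2 CPM over 6951 bases) below Ascl2 (27.9 over 1623).

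Within a library, the ratio of one gene to another does not depend on the scaling between tissues. Lgr5 stood at 0.222, 0.237, 0.221 and 0.133 FPKM per FPKM of Lgr4 in tumor, against 0.0401, 0.0131, 0.0261 and 0.0156 in small intestine. The receptor pair thus shifted toward Lgr5 in every tumor library, by 3.28 on the log2 scale of counts. Rnf43 stood at 4.76, 3.98, 4.40 and 4.83 per FPKM of Znrf3 in tumor, against 11.2, 10.6, 8.75 and 18.5 in small intestine. The ligase pair shifted toward Znrf3, with a log2 difference of -1.37, and Rnf43 remained the more abundant of the pair in each library. Lgr5 per FPKM of Smoc2 was 0.368, 0.481, 0.356 and 0.237 in tumor, against 0.207, 0.103, 0.0726 and 0.134 in small intestine. Lgr5 to Bmi1 was higher in tumor by 3.12 on the log2 scale. Lgr5 to Ascl2 differed by 0.37, with libraries that overlapped (exact two-sided permutation p = 0.371, adjusted 0.371). For the other 7 of the 8 ratios compared, the exact two-sided permutation p was 0.0286, the smallest that 4 against 4 allows. It was 0.0327 after Benjamini-Hochberg adjustment over the 8. Any ratio without overlap gives this p. The share of such ratios among other pairs of genes was not computed, and 70.5% of single genes tested were without overlap. Most of the pairs share Lgr5 or Olfm4, so the 8 ratios are not independent.

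**Figure D3:**
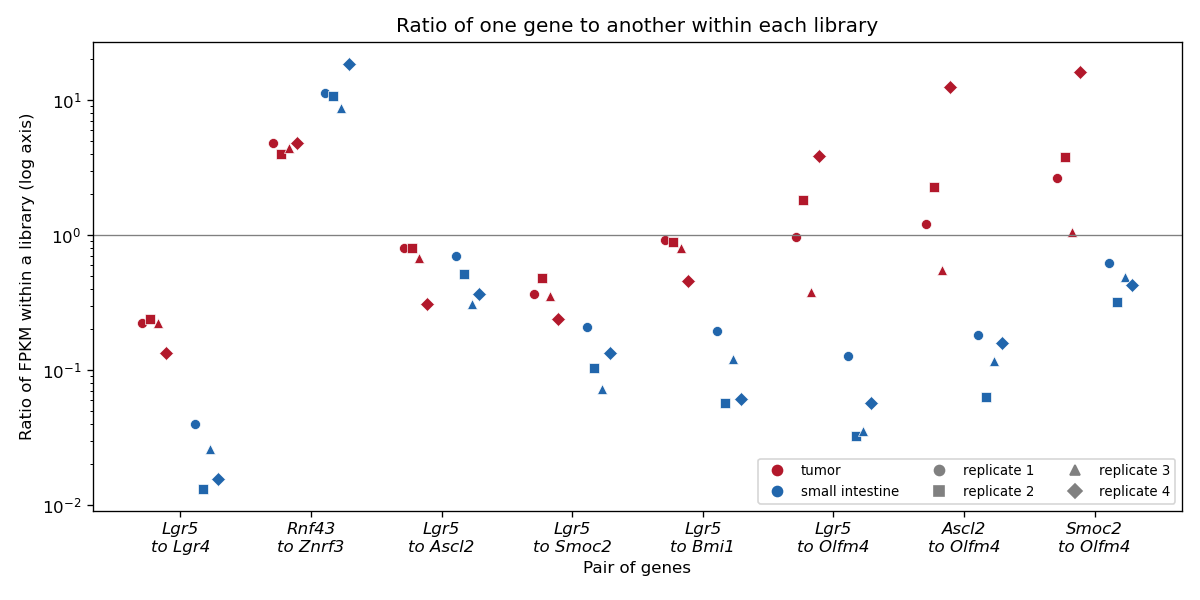
Ratio of one gene's FPKM to another's within each library (log axis) for 8 pairs, with tumor left of small intestine and a symbol for each replicate number. The groups overlap for Lgr5 to Ascl2 and for no other pair, and Ascl2 to Olfm4 runs from 0.555 to 12.4 in tumor against 0.0632 to 0.182 in small intestine.

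Ascl2 and Smoc2 rose with Lgr5. Ascl2, the stem cell transcription factor (ENSMUSG00000009248, chromosome 7 from 142966829 to 142969264), had 25.3, 25.4, 25.8 and 34.9 CPM in tumor, against 3.51, 1.59, 4.58 and 2.88 CPM in small intestine. Tumor replicates 1 to 3 were nearly equal and replicate 4 was the highest. The log2 fold change was 3.15 ± 0.30 (edgeR adjusted p = 1.06e-05). Tumor replicate 4 was thus the highest library for Ascl2 and the lowest tumor library for Lgr5. Its Lgr5 to Ascl2 ratio of 0.308 FPKM per FPKM compares with 0.681 to 0.804 in the other tumor libraries.

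Smoc2 (ENSMUSG00000023886, chromosome 17 from 14279506 to 14404790) had 112, 87.4, 100.2 and 89.4 CPM in tumor, against 24.4, 17.0, 38.9 and 15.8 CPM in small intestine. The groups did not overlap, and the small intestine libraries spread 2.47-fold, with replicate 3 the highest. The log2 fold change was 2.02 ± 0.27 (edgeR adjusted p = 0.000112). Smoc2 is also made by stromal cells, and the fibroblast markers rose by a median of 4.75 on the log2 scale; the part of those cells in its rise was not tested.

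Olfm4 behaved otherwise. This secreted glycoprotein gene (ENSMUSG00000022026, chromosome 14 from 79984081 to 80023139) had 24.9, 13.9, 56.3 and 3.27 CPM in tumor, against 26.9, 35.9, 51.7 and 22.4 CPM in small intestine. The groups overlapped, and the tumor libraries spread 17.2-fold, against 2.31-fold in small intestine and at most 1.98-fold in tumor for any other of the 10 genes. On the same strand Gm6999 shares 153 exon bases with Olfm4, 5.2% of its exon length, and had 0 counts in every library. The fold change of Olfm4, -0.48 ± 0.67 on the log2 scale, was not called (edgeR adjusted p = 0.534). Without tumor replicate 3 it was -1.24 and without tumor replicate 4 -0.08, and with library totals alone it was 0.36, none of them called. Relative to Olfm4, Lgr5, Ascl2 and Smoc2 were higher in tumor: the log2 ratio to Olfm4 differed by 4.63 for Lgr5, 4.26 for Ascl2 and 3.14 for Smoc2. Without tumor replicate 4 these differences were 4.09, 3.39 and 2.42, and without tumor replicate 3 they were 5.23, 4.90 and 3.73.

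Tumor replicate 4, the lowest for Olfm4, stood apart in several marker sums. Replicate 3 was the highest and replicate 4 the lowest tumor library for Olfm4, for the summed goblet cell markers (3019 and 776 CPM) and for the summed Paneth cell markers (2515 and 951 CPM). The same extremes held for the summed smooth muscle markers (188 and 154 CPM) and ErbB receptors (274 and 228 CPM). Replicate 4 was also the lowest tumor library for the summed pan-epithelial and fibroblast markers, for the other crypt base genes and for the 10 genes together. The reverse extremes, replicate 4 highest and replicate 3 lowest, held for proliferation markers (1294 and 1035 CPM), endothelial markers (194 and 148 CPM) and paralogs of the 10 genes (87.9 and 81.5 CPM). Replicate 4 was also the highest for leukocyte markers (96.8 CPM). The part of these differences in the spread of Olfm4 was not tested. In mouse gut Olfm4 has been described as a Notch target. Of 9 Notch genes tested, 5 rose, among them the receptor Notch1 (log2 fold change 1.86), the ligand Jag1 (1.68) and the target Hes1 (1.45). Another target, Heyl, was not called (0.07), and Hes5 was too low to be tested. The ligands Dll1 and Dll4 and the secretory factor Atoh1 fell, with log2 fold changes of -2.25 for Dll1, -0.97 for Dll4 and -2.59 for Atoh1. With library totals alone 6 rose, Heyl among them, and 2 fell, and Dll4 was not called. Of all genes tested, 38.9% were called higher with TMM and 62.0% with library totals alone. Hes1, Heyl, Hes5, Jag1 and Dll4 were named after their values were seen.

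Upstream sequence was looked at because Ascl2 and Rnf43 rose together while Olfm4 did not. RefSeq windows of GRCm38.p6 were matched for 7 of the 10 genes, with none for Lgr5, Znrf3 and Smoc2. The 250 bases before a RefSeq transcription start are given 5′ to 3′ on the gene's strand. For Olfm4 and Rnf43 that start lies inside the gene spans given above, which come from another annotation, GENCODE, and begin further upstream. The window of Ascl2 is chr7:142969265-142969514 (minus strand), that of the first Rnf43 start chr11:87662837-87663086 (plus) and that of Olfm4 chr14:80000052-80000301 (plus). Capitals mark a match to one of the motifs searched.
Ascl2: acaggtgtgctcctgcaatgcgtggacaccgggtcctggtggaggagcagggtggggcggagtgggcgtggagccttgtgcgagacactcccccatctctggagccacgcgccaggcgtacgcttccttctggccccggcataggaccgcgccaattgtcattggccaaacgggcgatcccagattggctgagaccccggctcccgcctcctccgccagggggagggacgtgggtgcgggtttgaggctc
Rnf43: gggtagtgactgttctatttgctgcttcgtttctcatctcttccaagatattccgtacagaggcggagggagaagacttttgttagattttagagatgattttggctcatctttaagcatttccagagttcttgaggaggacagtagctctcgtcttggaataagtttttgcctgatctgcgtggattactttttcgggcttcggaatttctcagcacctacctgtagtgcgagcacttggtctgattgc
Olfm4: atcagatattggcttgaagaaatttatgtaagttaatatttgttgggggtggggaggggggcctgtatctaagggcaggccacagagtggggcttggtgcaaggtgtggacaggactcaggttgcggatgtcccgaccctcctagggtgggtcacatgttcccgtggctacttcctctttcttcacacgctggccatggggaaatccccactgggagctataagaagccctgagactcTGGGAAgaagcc
The TCF/LEF motif, through which beta-catenin acts, was searched on both strands as CTTTG followed by a pair of bases that are each A or T. It was in none of the 9 windows of the 7 genes, while 14.8% of 32841 mouse windows of the same length held it. The E-box CAGCTG, bound by ASCL factors, was in none of them either, against 13.0% of all windows. With only 9 windows, the absence of either motif cannot be told apart from these shares. The core letters TGGGAA of the Notch effector RBPJ were found in the windows of Olfm4, at positions -12 to -7 counted from the start, and of Bmi1, at -246 to -241 on the opposite strand. Of all windows 21.6% held them. A match is only a match of letters, and windows of this length leave out distant enhancers.

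Lrig1, Bmi1 and Hopx, used to mark reserve stem cells, had smaller fold changes than Lgr5, Ascl2 and Smoc2 but larger ones than Olfm4 (-0.48). Lrig1, the ErbB inhibitor (ENSMUSG00000030029, chromosome 6 from 94604529 to 94700158), had 103, 83.4, 81.6 and 64.2 CPM in tumor, against 28.1, 29.1, 40.1 and 23.9 CPM in small intestine. The groups did not overlap, and the log2 fold change was 1.46 ± 0.19 (edgeR adjusted p = 7.85e-05). On the opposite strand Slc25a26 shares 144 exon bases with Lrig1, 2.6% of its exon length, so a few reads of either gene may have been assigned to the other or left out. The receptors that LRIG1 restrains went both ways. Egfr rose by 0.78 on the log2 scale, while Erbb2 and Erbb3 fell by 1.84 and 2.84, also under library totals alone. Erbb4, with 1 count in all of tumor and 0 in small intestine, was not tested. The Lrig1 relatives Lrig2 and Lrig3 fell by 0.79 and 3.07, and Lrig2, named after its value was seen, was not called with library totals alone (0.08).

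Bmi1 (ENSMUSG00000026739, chromosome 2 from 18677018 to 18686629) had 34.5, 37.3, 36.1 and 36.6 CPM in tumor, against 24.5, 28.4, 21.4 and 30.4 CPM in small intestine. The groups did not overlap, the tumor libraries differing by at most 1.08-fold. Its log2 fold change was 0.47 ± 0.12 (edgeR adjusted p = 0.00526), and 1.34 with library totals alone, where the median of all genes was 0.93. Of 16 other genes listed for Polycomb repressive complex 1, including its target Cdkn2a, 8 rose and 2 fell, with a median of 0.59. The chromobox gene Cbx6, the polyhomeotic gene Phc1 and Cbx2 led, at log2 fold changes of 2.75, 2.15 and 1.17, while Cbx7 fell by 1.29 and Pcgf5 by 0.57. With library totals alone 14 of them rose and none fell, Cbx7 standing at -0.44 and Pcgf5 at 0.31 without a call. These counts are to be read against 38.9% of all genes called higher with TMM and 62.0% with library totals alone. Cbx2 and Pcgf5 were named after their values were seen.

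Hopx (ENSMUSG00000059325, chromosome 5 from 77086988 to 77115121) had 37.3, 39.0, 36.2 and 36.6 CPM in tumor, against 18.1, 20.3, 25.4 and 19.9 CPM in small intestine. The tumor libraries were close together and all above the small intestine libraries. The log2 fold change was 0.83 ± 0.11 (edgeR adjusted p = 0.000115), and 1.70 with library totals alone. The antisense gene Hopxos shares 412 exon bases, 27.2% of those of Hopx, and without a stated strand setting their reads cannot be told apart. Hopxos held 21 to 51 counts per tumor library and 7 to 18 per small intestine library, far fewer than the 2594 to 3377 and 1042 to 1208 counts of Hopx. Among 7 other reserve stem cell genes, Clu and Tert rose, Krt19 fell and 4 did not pass the test. Clu, encoding clusterin, averaged 2425 ± 617 CPM (SD) across 4 tumor libraries, against 157 ± 122 CPM across 4 small intestine libraries. Its log2 fold change was 3.95, beside 3.55 for Lgr5, so not every reserve stem cell gene changed less than Lgr5. Tert, encoding telomerase, showed 0.68, and the keratin Krt19, also a pan-epithelial marker, -1.33. With library totals alone 4 rose and 1 fell, where 62.0% of all genes tested were called higher, in place of 38.9% with TMM.

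Among R-spondin and Wnt receptor genes, 10 of 15 tested rose and 2 fell (median 2.23 on the log2 scale). With library totals alone 13 rose and 1 fell, where 62.0% of all genes tested were called higher, in place of 38.9% with TMM. Frizzled genes, which encode Wnt receptors, held both extremes. Fzd10 averaged 63.6 ± 13.8 CPM across tumor libraries, against 0.147 ± 0.0830 CPM across small intestine libraries (SD), for a log2 fold change of 8.72 ± 0.35 (edgeR adjusted p = 7.86e-08). Fzd5 averaged 33.7 ± 3.61 CPM across tumor libraries, against 222 ± 14.9 CPM across small intestine libraries (SD), and its log2 fold change was -2.72 ± 0.11. Lgr6, the remaining R-spondin receptor, averaged 6.19 ± 2.14 CPM in tumor against 0.121 ± 0.0698 CPM in small intestine (SD) and rose by 5.67 on the log2 scale. The Wnt co-receptor Lrp5 rose by 0.76, and Lrp6 fell by 0.30 but stood at 0.57, called higher, with library totals alone. Lrp5 and Lrp6 were named after their values were seen.

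R-spondin genes were scarce in all 8 libraries. Rspo4 had 311 counts in all of tumor and 5 in all of small intestine, and Rspo3 had 151 in tumor and 21 in small intestine. Both rose, with log2 fold changes of 5.24 ± 0.74 (edgeR adjusted p = 0.000151) and 2.23 ± 0.78 (0.0260). Rspo1, with 28 counts in tumor and 8 in small intestine, and Rspo2, with 0 in tumor and 4 in small intestine, were too low to be tested. A total of 3 counts in a library, the limit that a count of 0 allows, correspond to 0.0331 to 0.0630 CPM, for counting error only. Rspo1, Rspo2 and Rspo3 were named after their values were seen.

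**Figure D4:**
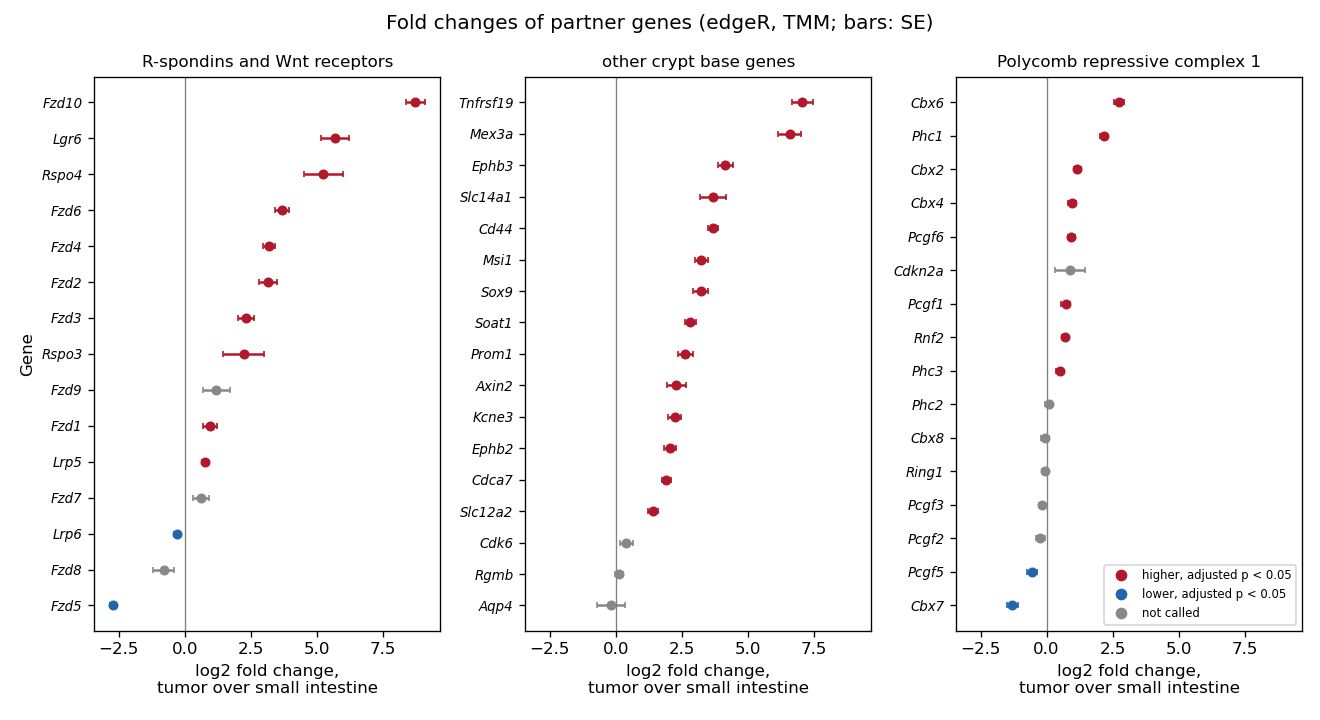
Log2 fold change of tumor over small intestine with SE (edgeR, TMM) for R-spondins and Wnt receptors, for other crypt base genes and for Polycomb repressive complex 1, colored by call. Fzd10 at 8.72 and Fzd5 at -2.72 are the ends of the left panel, 14 of 17 other crypt base genes were called higher and 8 of 16 Polycomb genes were.

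Other crypt base genes rose with Lgr5 and Ascl2: 14 of 17 were called higher and none lower (median 2.64 on the log2 scale). This list was chosen with earlier results of these data known, so its direction is not independent evidence. Tnfrsf19, a receptor of the TNF family also called Troy, averaged 141 ± 22.4 CPM across tumor libraries, against 1.06 ± 0.527 CPM across small intestine libraries (SD), for a log2 fold change of 7.06 ± 0.39. Mex3a, an RNA-binding protein gene, and Ephb3, an ephrin receptor gene that positions cells along the crypt, showed 6.58 ± 0.43 and 4.15 ± 0.29 (edgeR adjusted p from 3.98e-07 to 1.66e-06 for the 3 genes). Cdk6, Rgmb and Aqp4 did not pass the test, at 0.40, 0.13 and -0.18, and were named after their values were seen. With library totals alone 16 rose and none fell, and Aqp4 was the one without a call. Among the paralogs of the 10 genes, Smoc1 and Olfm2 rose by 4.07 and 6.06 on the log2 scale. Olfm2 had 747 counts in all of tumor and only 7 in all of small intestine, near the limit that a count of 0 allows. Of the 6 paralogs tested 4 rose and 2 fell, and with library totals alone 4 rose and 1 fell. Both lists are to be read against 38.9% of all genes called higher with TMM and 62.0% with library totals alone.

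Against the proliferation markers of the same library, the 10 genes split. This scaling was chosen after the data were seen and has no test. Per 1000 counts summed over 8 proliferation markers, Rnf43 (201 to 239 in tumor, 90.6 to 169 in small intestine), Znrf3 and Ascl2 were higher in every tumor library. Lgr4 (166 to 228 in tumor, 374 to 731 in small intestine), Bmi1, Hopx and Olfm4 (2.53 to 54.4 in tumor, 85.0 to 122 in small intestine) were lower in every tumor library. Smoc2, Lrig1 and Lgr5 overlapped, Lgr5 because tumor replicate 4 at 21.9 lay below small intestine replicate 1 at 22.4. Of all genes tested, 79.7% did not overlap on this scale, 10.7% higher and 69.0% lower in tumor, so 3 higher and 4 lower of 10 genes are to be read against those shares. Per 1000 counts of 8 pan-epithelial markers, 9 of the 10 genes were higher in tumor without overlap, where 79.7% of all genes did not overlap, 70.8% higher and 8.91% lower. Lgr5 stood there at 4.34 to 6.38 in tumor and 0.104 to 0.361 in small intestine.

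The profiles nearest to Lgr5 and to Olfm4 were sought among 11193 other genes with a mean of at least 5 CPM, by the root mean square difference of log2 CPM centered on each gene's mean over 8 libraries. Nearest to Lgr5 were Tpd52l1 (0.16), the laminin chain gene Lamb2 (0.25), Klhl8 (0.25), Vasn (0.27) and Wfdc2 (0.27). Their log2 fold changes lay between 3.32 and 3.70, with the lowest tumor value in replicate 4 and the highest small intestine value in replicate 1, a likeness that the choice by profile fixes. Nearest to Olfm4 were the goblet cell gene Spink4 (0.45), the sulfotransferase gene Chst4 (0.59), the mucosal glycoprotein gene Dmbt1 (0.61), the kallikrein gene Klk1 (0.61) and the water channel gene Aqp4 (0.63). Spink4 had 239, 232, 401 and 62.9 CPM in tumor, against 457, 423, 731 and 269.7 CPM in small intestine. Each of the 5 genes nearest to Olfm4 had its lowest tumor value in replicate 4, again through the choice by profile. Distances to Olfm4 were larger than those to Lgr5.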

How the data were processed

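The authors deposited a table of raw read counts per gene and a table of FPKM values (scaled by the authors for gene length and library size) for the same 8 libraries. The submitters' processing notes name build GRCm38 and the tools STAR, HTSeq 0.6.0, Cufflinks 2.2.1 and FastQC; what each tool was used for, its settings, the annotation release, the use of strand and the treatment of shared reads are not stated in these notes. RNA was extracted with TRIzol and treated with DNase, per the labels' protocols. Small intestine FPKM columns sum to 1484108 to 10163708, above any tumor column (at most 525873), so FPKM was used here gene by gene. Groups came from the tissue label. Members, lists, pairs and tests were chosen with earlier results of these data known.

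Ensembl identifiers gave a symbol for 42462 of 43629 genes, and coordinates come from GENCODE on GRCm38. Totals ran from 53856561 to 84433335 counts per library. Counts were tested with edgeR 4.0.16 (glmQLFit, glmQLFTest; TMM, filterByExpr, tissue as the only term) in R 4.3.3, with Benjamini-Hochberg adjustment over all genes tested and a call at an adjusted p below 0.05. SE is the log2 fold change divided by the root of F. For FPKM, limma 3.58.1 with a trend was run on log2(FPKM + 1) at a mean FPKM of at least 1. Ratios used counts plus 0.5 and exact two-sided permutation tests. Every pair of replicates differed by more than counting error (smallest chi-square over its degrees of freedom, 38.9). On simulated counts for tumor against small intestine (16760 genes, 195 of them changed), edgeR recovered 55.7% of 2-fold and 94.4% of 4-fold changes. Of its calls there, 7.74% were false. Limma recovered 64.3% and 94.9% (13773 genes, 163 changed), with 8.51% false calls. Far fewer genes were changed in the simulation than were called in the data, 74.3% of genes tested by edgeR and 82.7% by limma. These recovery and false-call rates therefore may not hold for the data.

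Named were all 10 members, and from each other list up to 3 called genes with the largest change plus the largest in the minority direction; marker lists of other cell types are given as counts and sums. One marker list is not reported here. For Lgr5 and Olfm4 the 5 nearest profiles were named. Alternatives were DESeq2 size factors, library totals alone, the DESeq2 1.42.0 Wald test, TMM after dropping the top 50 genes by abundance, a filter at 1 CPM on average or none at all, the replicate block and each library left out; for FPKM a pseudocount of 0.1, no filter, the block and each library left out; and for ratios FPKM in place of counts, the block and each library left out.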

Additional observations from a re-analysis of the deposited data

Results flagged for a closer look

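Of 36 groups of 4 libraries tested for a library far from the rest (10 genes and 8 ratios in each tissue), 3 held one, where chance gives about 1 in 20. Rnf43 in tumor replicate 3 stood at 229 CPM, below the 260.3 to 265.0 CPM of the other tumor libraries. Znrf3 in tumor replicate 2 stood at 92.0 CPM, above the 73.3 to 76.5 CPM of the others. Ascl2 in tumor replicate 4 stood at 34.9 CPM, above the 25.3 to 25.8 CPM of the others. Each of these values lay on the tumor side of every small intestine library.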

How the results depend on the processing

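The 9 genes called higher were called higher under each of the 15 count alternatives and each of the 11 FPKM alternatives, with none called lower. Lgr4 came closest to losing its call, at an edgeR adjusted p of up to 0.0439 over the count alternatives, with log2 fold changes from 0.24 to 1.18. The titles number the libraries of both groups 1 to 4, but same-numbered libraries did not deviate together (correlations of -0.14 to 0.01 over genes, and 0 of 4 tumor libraries nearest to its own number). With the replicate block 9 genes were called higher and 0 lower, from counts and from FPKM, and Olfm4 stood at -0.99 (edgeR adjusted p = 0.114). Olfm4, not called under any of these alternatives, turned to 0.36 with library totals alone. In FPKM it was at 0.05 (limma), at -0.0038 with a pseudocount of 0.1 and at -0.49 to 0.69 with 1 library left out. Against summed pan-epithelial counts, chosen after the data were seen, Olfm4 turned to 0.43. Against summed proliferation counts, likewise added, Lgr4 turned to -1.45, Lrig1 to -0.30, Bmi1 to -1.29 and Hopx to -0.92; both denominators themselves differ between the tissues. Each of the 8 ratios kept its sign with FPKM and with 1 library left out, where no p below 0.05 is possible, and the block leaves their means as they are.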
